A study of Mus musculus with 2 samples.

Results

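Organic anion transporting polypeptides are the membrane proteins encoded by the Slco genes, and 7 of them were followed here through the thick ascending limb (TAL) of the mouse kidney. The members were listed by name, with earlier results of these data known, as Slco3a1, Slco2a1, Slco2b1, Slco4a1, Slco4c1, Slco5a1 and Slco1a1, which are 7 of the 14 Slco genes and 7 of the 32227 genes in the count matrices. The material was nuclear RNA from male B6 mice labelled WT, with age given as 12 and no unit. According to the methods these were NKCC2-Cre-INTACT animals, in which a tamoxifen-induced Cre driven by the gene of NKCC2, the TAL salt cotransporter encoded by Slc12a1, switches on a green fluorescent nuclear envelope tag from CAG-SUN1-sfGFP-Myc. Both groups carried these alleles and received tamoxifen, and tagged nuclei were sorted from a superficial cortical strip (cortex) or from all remaining tissue (medulla). There was 1 library per region, so region and library cannot be told apart, no p-value can be given, and every interval below covers counting error only. Nothing in the labels says how many animals went into a library.

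These transporters carry large amphipathic organic anions across cell membranes without sodium coupling, among them prostaglandins, thyroid hormones, steroid conjugates and bile acids. SLCO2A1 is the prostaglandin transporter, which takes prostaglandins up from the extracellular space for breakdown. SLCO3A1 and SLCO4A1 are broadly expressed family members that carry prostaglandins and thyroid hormones, SLCO4C1 and SLCO1A1 are known from the kidney tubule, and SLCO2B1 is known from liver, gut and endothelium. The TAL reabsorbs salt, and prostaglandin E2 acts on it through receptors such as the one encoded by Ptger3.

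The cortex matrix held 5442 barcodes with 16457300 counts in all and the medulla matrix 8121 barcodes with 20947211 counts, at medians of 2427 and 2430 counts per barcode. No barcode sequence occurred in both. A barcode with at least 10 Slc12a1 counts was taken as TAL, which kept 5218 barcodes in cortex and 7967 in medulla. Of these, barcodes with at least 3 Nos1 and Pappa2 counts were called macula densa (MD), those left with at least 2 Tmem52b counts β, those left with at least 2 Tmem207 and Gpc5 counts γ, and all others α. The cortex library gave 2824 α, 1493 β, 248 γ and 653 MD barcodes, and the medulla library 3776 α, 571 β, 3542 γ and 78 MD barcodes. Barcodes with at least 5 Lrp2 and Cubn counts, the endocytic receptors of the proximal tubule, and at most 2 Slc12a1 counts were called proximal, 68 in cortex and 94 in medulla. The classes are ranges set by cuts: 331 of the 1493 cortical β barcodes and 205 of the 571 medullary ones stood exactly at the β cut, and 748 of the 3776 medullary α barcodes held 1 γ count.

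Marker genes outside the rule followed the labels in part. The summed level of 6 β markers, including Cldn16 and Kcnj10, was 5644 CPM (counts per 1000000 counts of the class) in cortical β against 2128 in α, and the 6 MD markers reached 6821 CPM in cortical MD against 624 in α. The 7 α markers, including Cldn10 and Ptger3, were at 2852 CPM in cortical α, 1393 in MD, 1105 in γ and 738 in β. In medulla the α markers were at 3733 CPM in α, 2397 in γ, 1199 in MD and 881 in β. In the cortical γ class the γ markers, at 1867 CPM, were above those of cortical β (961) and α (687). Its β markers, at 2863 CPM, lay between those of α and β, and both lists hold Kcnj10. These 248 barcodes carry marks of both classes, so they are given by value and not compared as γ. In medulla the β markers were at 4154 CPM in β, 932 in α and 760 in γ. The γ markers were at 2586 CPM in medullary β, 2908 in α and 5992 in γ. Since β was called first, 76.7% of medullary β barcodes also held a Tmem207 or Gpc5 count. Ratios to medullary β are thus ratios to a class in which both marks occur. The 5 further TAL markers, including Umod and Egf, were low in MD, at 4065 CPM in cortex and 1656 in medulla. Proximal transcripts were frequent in the cortical TAL barcodes: 682 of 5218 (13.1%) held at least 2 Lrp2 and Cubn counts, against 145 of 7967 (1.82%) in medulla. These barcodes were deeper, with medians of 5869 and 6732 counts against 2300 and 2409 in those without such counts.

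On the GRCm39 assembly the members lie on 5 chromosomes. Slco3a1 is at chr7:73925161-74204944 (minus strand, 280 kb), Slco2b1 at chr7:99306783-99360547 (minus), Slco2a1 at chr9:102865911-102973201 (plus, 107 kb), Slco4a1 at chr2:180097984-180116660 (plus, 18.7 kb), Slco4c1 at chr1:96743995-96800111 (minus), Slco5a1 at chr1:12936773-13062982 (minus) and Slco1a1 at chr6:141853007-141892690 (minus). Genes of the GENCODE annotation overlap 5 of them, but none of the overlapping genes in the matrices had more than 12 TAL counts in a library. Since nuclear counts take in intronic reads, levels are set between genes per kb of gene span, but whether counts of this 3′ kit scale with span was not tested. On that scale Slco3a1 (3.24 CPM per kb), Slco2a1 (2.54) and Slco4a1 (2.05) lay close together in cortical α, while in medullary α Slco4a1 (4.45) stood above Slco3a1 (3.05) and Slco2a1 (1.44). Before division by span the medullary order was the other way, at 83.2 CPM for Slco4a1, 154 for Slco2a1 and 853 for Slco3a1. No order of expression between these genes is drawn.

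The 250 bases before the annotated start of Slco3a1, Slco2a1 and Slco4a1 are shown because these 3 members had the most TAL counts, and Slco2a1 and Slco4a1 differed in opposite directions between the libraries. The start is that of the canonical transcript, which for Slco2a1 lies inside the gene span. Capitals mark matches, on either strand, to any of 5 motifs that were searched. The GC box, bound by Sp-family factors, was searched as GGGCGG. The promoter box named for its letters was searched as CCAAT. The TATA box was searched as TATAAA. The core of the tonicity element was searched as TGGAAA. The half-site of nuclear receptors was searched as AGGTCA.
Slco3a1, chr7:74204945-74205194, minus strand: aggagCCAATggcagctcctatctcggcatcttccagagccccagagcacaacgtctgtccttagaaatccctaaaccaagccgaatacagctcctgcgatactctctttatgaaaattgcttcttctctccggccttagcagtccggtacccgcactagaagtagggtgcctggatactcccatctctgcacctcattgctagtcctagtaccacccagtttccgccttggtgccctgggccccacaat
Slco2a1, chr9:102884951-102885200, plus strand: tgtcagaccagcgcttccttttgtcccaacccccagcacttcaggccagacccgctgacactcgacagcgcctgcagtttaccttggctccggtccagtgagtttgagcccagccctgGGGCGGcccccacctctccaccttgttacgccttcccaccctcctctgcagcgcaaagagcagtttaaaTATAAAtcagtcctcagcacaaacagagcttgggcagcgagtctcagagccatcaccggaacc
Slco4a1, chr2:180097734-180097983, plus strand: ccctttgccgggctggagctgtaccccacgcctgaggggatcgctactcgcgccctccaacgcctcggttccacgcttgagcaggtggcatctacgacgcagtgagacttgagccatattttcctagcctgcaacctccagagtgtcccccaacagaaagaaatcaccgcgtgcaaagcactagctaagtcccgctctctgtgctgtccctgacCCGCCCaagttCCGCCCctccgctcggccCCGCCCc
The Slco4a1 window held 3 GC boxes, Slco2a1 held 1 GC box and 1 TATA box, and Slco3a1 held 1 CCAAT box. Among 21770 protein-coding genes, windows of the same length held a GC box in 36.3%, a CCAAT box in 36.5% and a TATA box in 11.9%. Neither the tonicity element core nor the half-site was found in these 3 windows, against 19.4% and 13.1% of all genes. G and C made up 62.8% of the Slco4a1 window, 58.8% of Slco2a1 and 53.6% of Slco3a1, with a median of 53.2% over all genes. These matches describe letters only.

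Slco3a1 was the most counted member and was highest in α among the TAL classes of both libraries. In cortex its level was 906 CPM in α (95% interval 885 to 927), 502 in β, 507 in γ and 426 in MD. In medulla it was 853 CPM in α (834 to 872), 487 in γ, 343 in β and 313 in MD. Medullary β and MD did not differ beyond their intervals. The α level exceeded β 1.80-fold in cortex (interval 1.73 to 1.89) and 2.48-fold in medulla (2.29 to 2.70), γ 1.75-fold in medulla (1.69 to 1.82) and MD 2.12-fold in cortex (1.97 to 2.30). Medullary γ was 1.42 times β (1.30 to 1.55), but 0.919 times β when γ was called by Tmem207 alone. The α to γ ratio was then 2.59, and 3.41 after free RNA was subtracted. That subtraction took the share of free RNA as 54.6% in α and 58.7% in γ, from their Lrp2 and Cubn counts. Such a share in γ would carry more Slco2a1 than was found there, since γ held 24.6 CPM and medullary free RNA 109 CPM. The value of 3.41 is therefore not read as a corrected ratio. The ratio to MD was 3.23 among barcodes with at most 4000 counts.

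**Figure D1:**
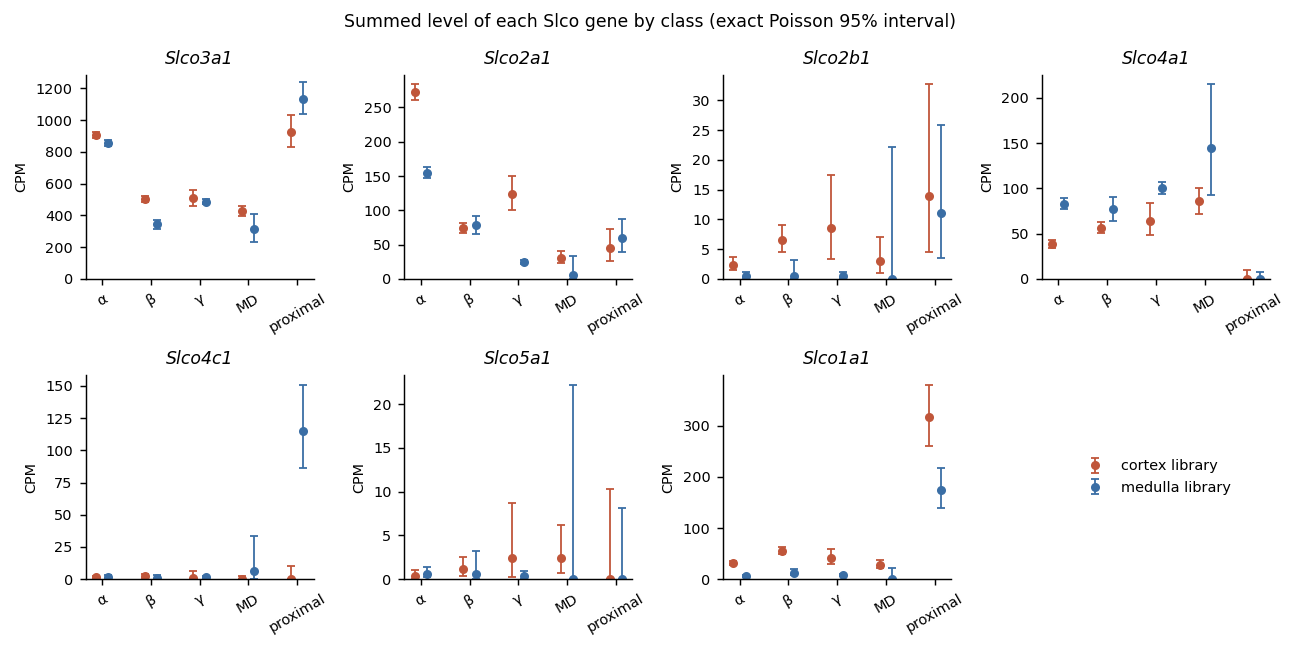
Summed level of the 7 Slco genes in CPM (y axis, from 0) in each class (x axis) of the cortex library (red) and the medulla library (blue), with 1 point per class and library and exact Poisson 95% intervals as bars. Slco3a1 and Slco2a1 peak in α among the TAL classes, and Slco1a1 and medullary Slco4c1 stand out in proximal barcodes. Slco4a1 is at 0 in proximal barcodes and highest in MD, where its interval overlaps that of γ in both libraries.

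The difference was visible barcode by barcode. Slco3a1 was counted in 77.4% of cortical α (interval 75.8 to 78.9) and 78.0% of medullary α barcodes, against 58.9% and 51.1% of β. After every barcode was thinned to 1000 counts, the shares were 51.5% and 53.2% in α, 29.9% and 26.3% in β, and 32.2% in medullary γ, with 23 shallower medullary TAL barcodes left out and 0 in cortex. The median α barcode held 2 Slco3a1 counts in each library and the median β barcode 1.

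The Slco3a1 level moved with proximal transcripts in cortical β, γ and MD and in medullary α and γ. In β barcodes without Lrp2 or Cubn counts it was 377 CPM, against 722 CPM in β barcodes with at least 2 such counts, while α held 899 and 922 CPM. The α level was therefore 2.38 times β (2.24 to 2.54) among barcodes without proximal counts and 1.28 times (1.19 to 1.37) among those with them. In medulla the ratio without proximal counts was 2.66 (2.43 to 2.92). Without and with at least 2 such counts Slco3a1 was 330 and 768 CPM in cortical MD and 427 and 658 CPM in cortical γ. In medulla it was 842 and 1072 CPM in α and 466 and 897 CPM in γ. The α level was then 2.72 and 1.20 times MD in cortex, and 1.81 and 1.20 times γ in medulla. Proximal barcodes themselves held 925 CPM in cortex and 1133 CPM in medulla, and free RNA, taken from barcodes outside the filtered matrices with at most 50 counts, held 598 and 587 CPM. The part of proximal or free transcripts in the levels of these classes was not tested further.

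**Figure D2:**
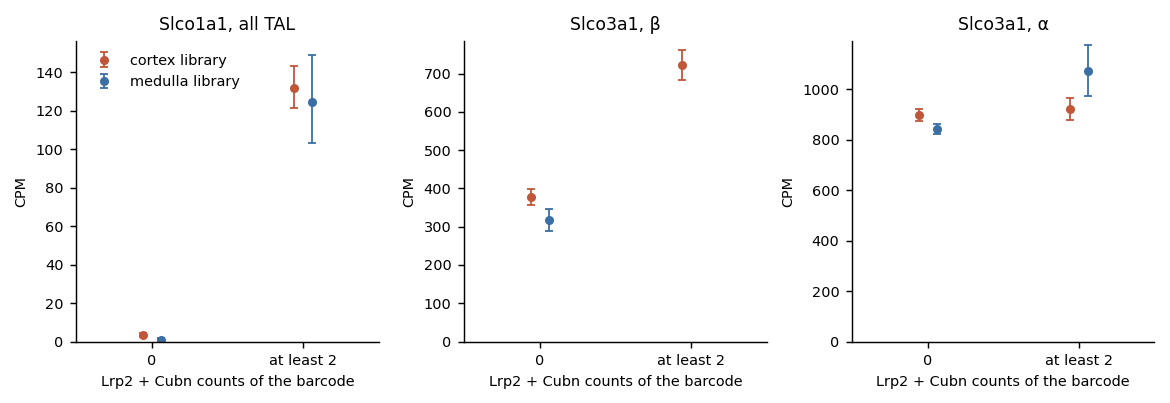
Level in CPM (y axis) of Slco1a1 in all TAL barcodes and of Slco3a1 in β and α barcodes with 0 or at least 2 Lrp2 and Cubn counts (x axis), for the cortex (red) and medulla (blue) libraries with exact Poisson 95% intervals. Slco1a1 lies near 0 without proximal counts, and cortical β Slco3a1 rises from 377 to 722 CPM while cortical α lies at 899 and 922 CPM; medullary β had fewer than 20 barcodes with at least 2 counts and has no point there.

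Taken over all barcodes of a class, Slco2a1, the prostaglandin transporter gene, was also highest in α of both libraries. Levels by position between cortex and medulla are given below. Its level in cortex was 272 CPM in α (261 to 284), 124 in γ, 74.4 in β and 30.6 in MD. In medulla it was 154 CPM in α (147 to 163), 78.0 in β and 24.6 in γ, and the 78 MD barcodes held 1 count. The α class exceeded β 3.66-fold in cortex (3.28 to 4.08) and 1.98-fold in medulla (1.66 to 2.38), medullary γ 6.27-fold (5.45 to 7.26) and cortical MD 8.90-fold (6.74 to 12.0). The ratio to MD ranged from 5.07 with claudin classes to 26.6 at 1000 counts per barcode. The medullary ratio to β ranged from 0.744 with claudin classes to 1575 after free RNA was subtracted. That subtraction, with the share of free RNA in β taken as 71.2%, left almost none of the β level, so 1575 gives no size. Medullary γ held 0.316 times the β level (0.254 to 0.394) over all barcodes. Slco3a1 was higher in γ than in β by these classes, but at 0.912 times β with claudin classes.

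Slco2a1 was counted in a minority of α barcodes. It was found in 34.6% of cortical α barcodes (32.8 to 36.3) and 17.6% of medullary α barcodes, and at 1000 counts in 19.1% and 9.63%, against 5.36% and 4.90% of β. Proximal barcodes, at median depths of 3711 and 4623 counts, held it in 7.35% (2.43 to 16.3) and 2.13% (0.259 to 7.48) at 1000 counts. The β shares lay within these intervals and are read neither as expression nor as its absence. The highest single barcode held 16 counts in each library while the median α barcode held 0. Thinned α counts had a variance of 1.74 times the mean in cortex and 1.89 times in medulla, against 1.12 and 1.07 for Slco4a1. The means differed, at 0.285 and 0.139 for Slco2a1 and 0.0397 and 0.0873 for Slco4a1, so no order of spread is drawn. Cortical α barcodes with a Slco3a1 count held Slco2a1 in 22.2% of cases at 1000 counts and those without in 15.7%, while the shares were 10.4% and 8.76% in medullary α and 5.37% and 5.35% in cortical β.

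Classes drawn from claudins and Kcnj10 in place of the rule's genes changed these ratios. With α as Cldn10-positive barcodes without Kcnj10 or Cldn16 and β as Cldn16-positive barcodes without Cldn10, the Slco2a1 ratio of α to β fell to 1.42 in cortex and turned to 0.744 in medulla. The Slco3a1 ratio was then 1.68 in cortex and 1.43 in medulla, and its γ to β ratio in medulla turned to 0.912. These classes left out 2462 of the cortical and 4509 of the medullary TAL barcodes.

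**Figure D3:**
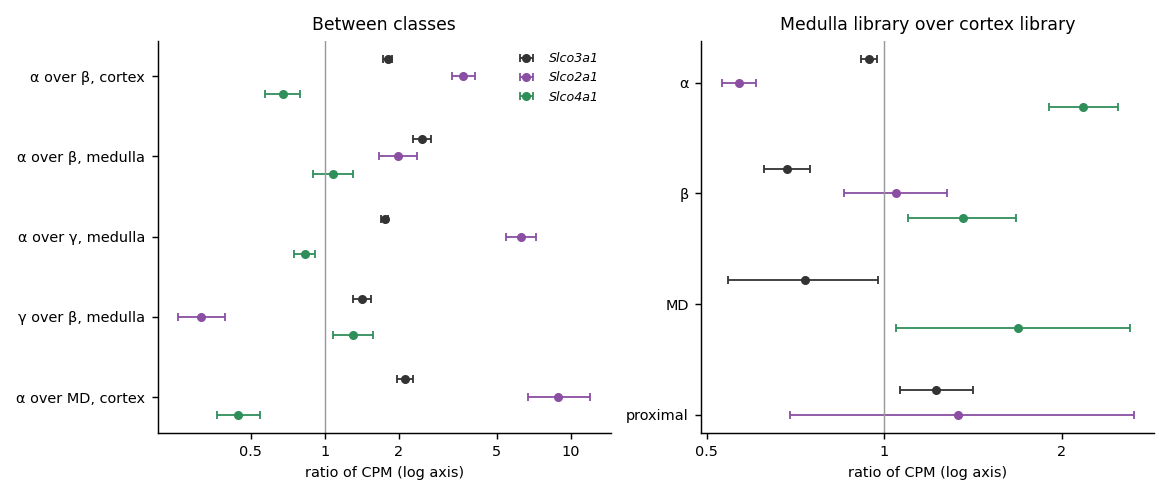
Ratios of levels (x axis, log scale) between TAL classes (left) and between the medulla and cortex libraries within a class (right) for Slco3a1 (black), Slco2a1 (purple) and Slco4a1 (green), with 95% conditional binomial intervals; ratios with 3 or fewer counts on a side are left out and the grey line marks 1. Slco3a1 and Slco2a1 lie right of 1 for α over β, γ and MD, and between libraries in α Slco2a1 lies at 0.568 and Slco4a1 at 2.17.

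Slco4a1, a broadly expressed thyroid hormone carrier, was not highest in α in either library. Its cortical level was lowest in α, at 38.3 CPM (34.1 to 42.8), and reached 56.6 in β, 64.2 in γ and 85.8 in MD (72.3 to 101). In medulla it was 83.2 CPM in α, 76.8 in β, 100 in γ (93.7 to 107) and 145 in MD (92.6 to 215, from 24 counts). Cortical α held 0.447 times the MD level (0.365 to 0.549) and 0.676 times the β level (0.575 to 0.796). In medulla α and β did not differ beyond counting error (ratio 1.08, interval 0.90 to 1.31). Over all barcodes α held 0.830 times γ (0.754 to 0.915), and levels by position are given below. Whether the α to β ratio differs between the libraries was not tested.

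Slco4a1 was not seen in proximal barcodes. None of the 68 cortical and 94 medullary ones held a count, which allows shares of up to 4.41% and 3.19% by 3 counts and 5.28% and 3.85% by the Clopper-Pearson interval. Of TAL barcodes, 13.1% and 19.1% held a count, or 5.14% and 8.75% at 1000 counts, and the cortical 5.14% lies within the exact limit. Against a limit of 3 counts the proximal level was at least 6.04-fold lower than TAL in cortex and at least 13.7-fold lower in medulla. Free RNA held Slco4a1 at 53.4 (44.6 to 63.4) and 114 CPM (99.5 to 130), so the proximal barcodes lay below the level of free RNA in both libraries. This was not particular to them. Cortical α (38.3 CPM) and medullary α and β (83.2 and 76.8 CPM) also lay below free RNA beyond the intervals. Among the TAL classes only cortical MD, at 85.8 CPM, lay above it beyond the intervals.

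Over all α barcodes, Slco2a1 and Slco4a1 differed in opposite directions between the libraries, and levels by position are given below. The medullary level of Slco2a1 was 0.568 times the cortical one (0.531 to 0.607), and that of Slco4a1 was 2.17 times the cortical one (1.90 to 2.49), or 3.49 times with the claudin classes. Among cortical α barcodes Slco2a1 was 318 CPM without Lrp2 or Cubn counts and 138 CPM with at least 2, and Slco4a1 43.2 and 22.3 CPM. Free RNA differed between cortex and medulla in the same directions, at 177 and 109 CPM for Slco2a1 and 53.4 and 114 CPM for Slco4a1. The α level of Slco2a1 lay above free RNA in both libraries and that of Slco4a1 below it. The part of proximal transcripts or free RNA in the library ratios was not tested further. Slco3a1 differed little, at 0.942 (0.912 to 0.972) or -0.09 on the log2 scale, where the median of all genes was -0.10. In β, Slco2a1 was level (1.05, interval 0.856 to 1.28), Slco3a1 was lower in medulla (0.684, 0.625 to 0.748) and Slco4a1 higher (1.36, 1.10 to 1.67). The β level of Slco2a1 lay below that of free RNA in both libraries. The Slco4a1 ratio in β was 0.998 among barcodes with at most 4000 counts.

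Within α, a position was read from each barcode as the share of medulla genes among the counts of 13 cortex and 13 medulla genes, lists that the study chose on these same libraries and that hold no member. In the medulla library Slco2a1 stood at 228 CPM on the cortex side (share under 0.25, 217 barcodes), 333 in the middle (1107 barcodes) and 55.4 on the medulla side (share over 0.75, 2452 barcodes). The medulla side held 0.166 times the middle level (0.146 to 0.189). Slco4a1 went from 52.9 to 61.2 to 97.3 CPM, and the medulla side held 1.59 times the middle level (1.34 to 1.89). Slco3a1 stayed between 768 and 961 CPM. In medullary γ, where 3374 barcodes lay on the medulla side and 158 in the middle, Slco2a1 was 18.3 CPM (15.6 to 21.4) and 138 CPM (106 to 175). In medullary β it was 45.0 (24.6 to 75.5), 86.9 (68.6 to 109) and 82.2 CPM (60.2 to 110) from cortex side to medulla side. On the medulla side α, at 55.4 CPM (49.6 to 61.8), was thus not above β, and in the middle γ was not below β. Slco4a1 in γ was 100 CPM (93.5 to 107) on the medulla side, where the α interval was 89.5 to 106. In the middle it was 102 CPM (74.9 to 135), above α (52.7 to 70.8). Class ratios in medulla mix these positions. Among all genes in medullary α, 4.95% were at least 2-fold lower on the medulla side than in the middle and 2.86% at least 2-fold higher.

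**Figure D4:**
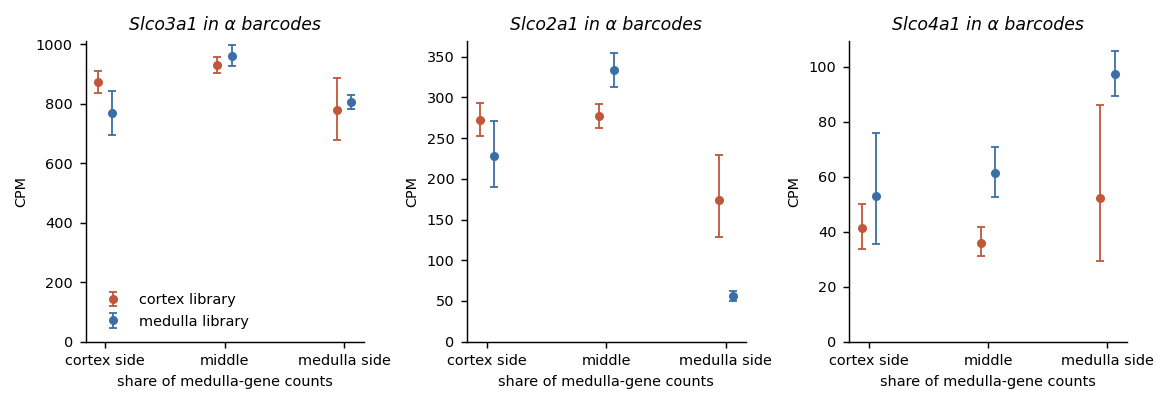
Level in CPM (y axis) of Slco3a1, Slco2a1 and Slco4a1 in α barcodes grouped by the share of medulla genes among cortex and medulla gene counts (x axis: cortex side under 0.25, middle, medulla side over 0.75), for the cortex (red) and medulla (blue) libraries with exact Poisson 95% intervals. Slco2a1 drops to 55.4 CPM on the medulla side of the medulla library, where Slco4a1 reaches 97.3 CPM.

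The cortex library had only 105 α barcodes on the medulla side. There Slco2a1 was 174 CPM (129 to 229), against 273 on the cortex side, a ratio of 0.637 (0.468 to 0.849). Set side by side, Slco2a1 in the cortex and medulla libraries was 273 (253 to 294) and 228 CPM (190 to 272) on the cortex side, 277 (263 to 292) and 333 CPM (313 to 355) in the middle, and 174 and 55.4 CPM (49.6 to 61.8) on the medulla side. In the middle Slco2a1 was thus higher in the medulla library, opposite to the ratio of 0.568 over all α barcodes. On the cortex side its intervals overlapped. Slco4a1 in the cortex and medulla libraries was 41.3 and 52.9 CPM on the cortex side, with overlapping intervals. In the middle it was 36.0 CPM (31.0 to 41.6) and 61.2 CPM (52.7 to 70.8). On the medulla side it was 52.1 CPM (29.2 to 85.9, from 15 counts) and 97.3 CPM (89.5 to 106).

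Slco1a1, a transporter of the proximal tubule brush border, was a proximal gene in these libraries. Its level was 317 CPM (261 to 381) in cortical and 175 CPM (138 to 218) in medullary proximal barcodes, against 39.7 and 7.02 CPM in TAL. These are ratios of 7.97 (6.47 to 9.76) and 24.9 (18.7 to 33.0). They rose to 95.1 and 186 among TAL barcodes without Lrp2, Cubn, Emcn, Flt1, Slc12a3 or Aqp2 counts. Since Lrp2 and Cubn also define the proximal class, that rise gives no independent information. Of the 623 Slco1a1 counts in cortical TAL, 581 (93.3%) lay in the 13.1% of barcodes with at least 2 Lrp2 and Cubn counts, and in medulla 120 of 143 counts (83.9%) lay in 1.82% of barcodes. TAL barcodes without proximal counts held 3.37 CPM in cortex and 1.06 CPM in medulla. Per 100 Lrp2 counts there were 8.83 Slco1a1 counts in cortical TAL and 8.50 in medullary TAL, beside 13.6 and 7.52 in the proximal barcodes. Free RNA held Slco1a1 at 44.7 and 18.2 CPM, above the TAL level in medulla, while in cortex the interval (36.7 to 53.9) held the TAL level.

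Slco4c1, known from the basolateral side of the proximal tubule, was highest in medullary proximal barcodes. These held 52 counts (115 CPM, 86.0 to 151) in 25 of 94 barcodes (26.6%), which was 73.2 times the TAL level (46.3 to 118). That ratio ran from 44.7 with claudin classes to 465 at 1000 counts per barcode. The cortical proximal barcodes held 0 counts in 68 barcodes, which allows a share of up to 4.41%, and with the cortical level set at the limit of 3 counts the medullary level was at least 13.7-fold higher. TAL held 1.53 CPM in cortex and 1.57 CPM in medulla, where 24 of the 32 counts lay in barcodes with at least 2 Lrp2 and Cubn counts.

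The proximal barcodes were split, after their classes had been seen, into those with more Slc5a2 and Slc5a12, genes of early proximal tubule, and those with more Slc7a13 and Slc22a30, genes of later proximal tubule. There were 35 early and 33 later barcodes in cortex, and 24 and 70 in medulla. All 52 Slco4c1 counts came from the 70 later barcodes of medulla (145 CPM), while the 33 later barcodes of cortex held 0. Slco1a1 was 513 CPM in later and 118 CPM in early cortical barcodes (ratio 4.34, 2.68 to 7.35), and in medulla 220 CPM in later barcodes and 0 counts in early ones. Slco3a1 was higher in later barcodes in both libraries, 2.01-fold in cortex (1.59 to 2.55) and 2.75-fold in medulla (2.02 to 3.84).

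**Figure D5:**
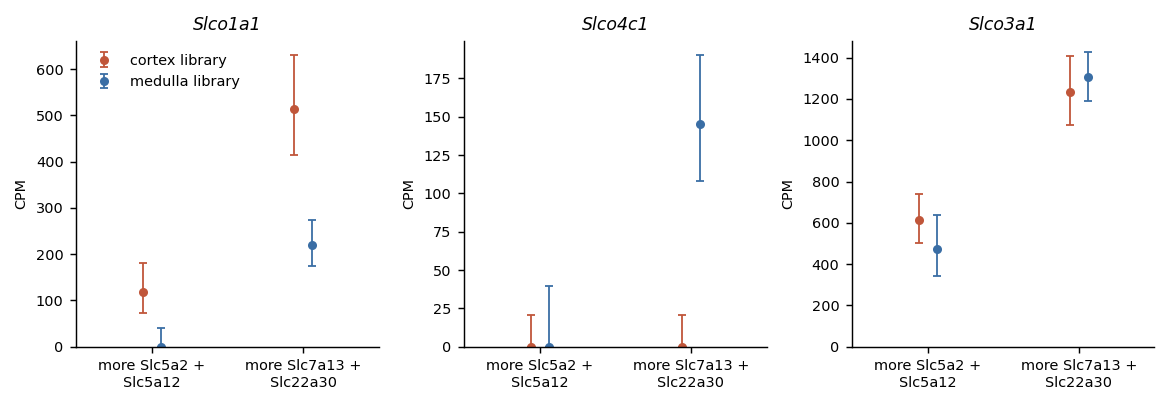
Level in CPM (y axis) of Slco1a1, Slco4c1 and Slco3a1 in proximal barcodes with more early (Slc5a2 and Slc5a12) or more later (Slc7a13 and Slc22a30) counts (x axis), for the cortex (red) and medulla (blue) libraries with exact Poisson 95% intervals. All 3 genes are higher in later barcodes of medulla, and Slco4c1 has counts only there.

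Slco2b1 and Slco5a1 were close to the limit of counting. Slco2b1 had 65 counts in cortical TAL (4.14 CPM) and 9 in medullary TAL (0.442 CPM), and 34 of the 65 lay in β, at 6.50 CPM against 2.39 in α. Cortical TAL barcodes with at least 2 counts of the 7 endothelial markers held 12.2 CPM (6.09 to 21.8) and those with none 3.13 CPM (2.26 to 4.24); the summed endothelial level was 188 CPM in cortical β and 95.7 CPM in α. The part of endothelial transcripts was not tested. Outside the classes, the 60 remaining medullary barcodes held 15 Slco2b1 counts (109 CPM). Slco5a1 had 15 counts in cortical and 10 in medullary TAL, and none in proximal barcodes. The ratio of cortical α to MD rested on 3 counts in cortical α and 4 in MD (0.157, interval 0.0230 to 0.928), and the α to β intervals of both libraries included 1.

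Counted by a 2-fold rule among features with at least 20 counts, the members were spread in both directions. For α over β in cortex 1 of 6 tested members was at least 2-fold higher (Slco2a1) and 1 lower (Slco2b1), where 2.29% and 2.71% of all genes were. In medulla 1 of 4 was higher (Slco3a1) and 1 lower (Slco1a1), against 5.00% and 3.25%. For α over γ in medulla 1 of 5 was higher (Slco2a1) and 0 lower, against 2.98% and 1.35%. For γ over β in medulla 0 of 4 were higher and 1 lower (Slco2a1), against 5.31% and 5.17%. For α over MD in cortex 2 of 5 were higher (Slco3a1 and Slco2a1) and 1 lower (Slco4a1), against 6.27% and 6.92%. Between the libraries in α 1 of 6 was higher in medulla (Slco4a1) and 2 lower (Slco2b1 and Slco1a1), against 2.02% and 11.0%. Between the libraries in proximal barcodes 1 of 4 was higher in medulla (Slco4c1) and 0 lower, against 5.84% and 7.12%. Proximal over TAL called 2 of 6 higher and 2 lower in cortex, against 16.2% and 13.2%, and 2 of 5 higher and 1 lower in medulla, against 17.7% and 16.1%. The median log2 ratio for α over β was -0.65 over the 6 members tested in cortex and 0.55 over the 4 tested in medulla. These sets differ, so the medians are not compared between libraries. Over all genes the medians were -0.02 and 0.02. With so few members these counts are a description.

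Among the other Slco genes of the matrices, Slco1a6 had 3834 TAL counts in cortex and 899 in medulla, and the other six had at most 42 in a library. Slco1a6 stood at 1359 and 1421 CPM in proximal barcodes against 244 and 44.2 CPM in TAL, with 54.4 and 53.4 counts per 100 Lrp2 counts in TAL and 58.4 and 61.1 in proximal barcodes. Reads shared between Slco1a1 and its near relatives in the Slco1a cluster may have been split by the counting, which leaves both values uncertain.

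The genes that make, sense and break down prostaglandins included Ptger3, which is also 1 of the 7 α markers used above. Of 17 listed genes, 12 had enough counts for α over β in cortex, where 2 were at least 2-fold higher with an interval above 1 and 1 was lower, where 2.29% and 2.71% of all genes passed 2-fold alone. Ptger3, the prostaglandin E receptor, was 7.69-fold higher in α (7.16 to 8.27) in cortex and 5.51-fold in medulla, at 1208 and 1951 CPM in α. Ptgs2, the inducible cyclooxygenase, was 5.42-fold higher in cortical α than β (1.93 to 21.04) from 33 and 4 counts. The study names cyclooxygenase-2 as a marker of MD. The 6 MD markers used above were at 624 CPM in cortical α and 166 CPM in β, and the part of MD transcripts was not tested. Ptgs1, the constitutive cyclooxygenase, was at 0.335 times β in cortical α (0.20 to 0.547). In medulla 2 of 10 genes were higher in α (Ptger3 and Ptgds, a prostaglandin D synthase, 4.62-fold with an interval of 1.52 to 22.9 from 74 and 3 counts), against 5.00% of all genes at 2-fold. For γ over β in medulla 2 of 9 were higher, against 5.31% of all genes, Ptger3 at 4.20-fold and Ptgds at 5.95-fold (1.97 to 29.4), and Pla2g4a, which frees arachidonic acid, was lower at 0.450 times β (0.388 to 0.523).

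Of 11 genes for thyroid hormone transport, deiodination and receptors, 8 in cortex and 7 in medulla could be compared for α over β. None was called, which is near the share of all genes, at 2.29% higher and 2.71% lower in cortex and 5.00% and 3.25% in medulla. For γ over β in medulla 1 of 7 was lower, Slc7a8, an amino acid and thyroid hormone carrier, at 0.398 times β (0.327 to 0.486). The 14 other organic anion transporters gave no call for α over β in either library, and 10 of 14 in cortex and 11 of 13 in medulla were higher in proximal barcodes than in TAL, against 16.2% and 17.7% of all genes.

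Over the 10 groups of class and library with at least 50 barcodes, proximal included, the genes whose log2(CPM + 1) followed a member most closely were named for each member with at least 200 TAL counts. Slco3a1 was closest to Ctdspl (Pearson r = 0.942), Cldn10 (0.90), a paracellular cation channel protein and α marker, and Zfp638 (0.887). Slco2a1 was closest to Afdn (0.927), a junction scaffold, Fahd2a (0.880) and Cish (0.878). Slco4a1 was closest to Gm26533 (0.991), Fam3c (0.990) and Serpinh1 (0.988), and Slco1a1 to 0610031O16Rik (0.997) and Idh1 (0.993). By rank correlation Afdn was again the closest gene to Slco2a1, and for Slco1a1 several genes, 0610031O16Rik and Idh1 among them, were tied. Fahd2a and Cish were not among the 3 closest to Slco2a1 by rank. For Slco3a1 and for Slco4a1, 0 of the 3 named genes were among the 3 closest by rank. Cldn10 and Zfp638 lay outside the 10 closest to Slco3a1, so these names depend on the measure. The 10 groups share 2 libraries and include the proximal barcodes, where Slco4a1 was at 0 and Slco1a1 highest, so these are descriptions without a test.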

How the data were processed

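Nuclei sorted from frozen mouse kidney were sequenced with the PIPseq T10 3′ kit v5.0, and the authors aligned the reads to GRCm39 and counted them with PIPseeker 3.3.0. The deposited matrices hold raw counts per gene and barcode, with no normalization, doublet removal or correction for free RNA. Values were read from the filtered matrices, and the raw matrices served for free RNA only. Counts were summed per class and library and divided by the class total (CPM). Levels carry exact Poisson intervals, ratios conditional binomial intervals and shares Clopper-Pearson intervals, all at 95%. A count of 0 was set to a limit of 3 counts. Such intervals cover counting error only, and with 1 library per region no test was run. Comparisons over all genes used genes with at least 20 counts, and a 2-fold call.

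The members, classes and gene lists were chosen with earlier results of these data known, and the cortex and medulla genes were chosen by the study on these libraries. The genes named are the 7 members, at most 6 pathway genes that passed a 2-fold call with an interval excluding 1, and the 3 genes most like each member with at least 200 TAL counts, of which 1 is not reported here. Scrublet called 359 cortical and 3 medullary barcodes; since the latter is 0.0369%, the 5% with the highest scores were removed in medulla in that alternative. Doublets were otherwise kept. Positions and start sites come from the GENCODE M39 annotation of GRCm39. Analyses used python 3.11.15, numpy 2.4.6, pandas 2.3.3, scipy 1.17.1, scanpy 1.11.5 and matplotlib 3.10.9, and scripts were tested on simulated counts.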

Additional observations from a re-analysis of the deposited data

How the results depend on the processing

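Results were taken under 17 alternatives and 1 chosen after seeing the data (TAL barcodes with at most 4000 counts). Each of the 11 main ratios had 13 or 14 of these, since the others did not apply to it or gave no value. Of the 147 values of these ratios, 100 moved by less than counting error, 47 moved further and 0 reversed. These 11 leave out Slco2a1 α over β and Slco3a1 γ over β in medulla, which both reversed with claudin classes. Of 513 values of 125 other results, 366 moved by less, 132 moved further and 15 reversed. Among these, shares of all genes and likest genes were judged by a fixed fold and not by counting error. No paired analysis was possible because each region has 1 library. The causes were not tested. Subtracting free RNA gave no value in cortical α, β or all TAL, where the estimate of its share exceeded the limit of 90%. That estimate is the level of Lrp2 and Cubn over their level in free RNA. It was 93.9% in cortical α, 127% in β and 105% in all TAL. Values over 100% cannot be a share, so the estimate is not read as the share of free RNA in these barcodes. Nor is it so read in medullary γ, where 58.7% of free RNA would carry more Slco2a1 than the 24.6 CPM found. The ratio of Slco4a1 in cortical α to MD did not move. Counts limit Slco2b1, Slco5a1 and Slco4c1 in TAL and all members in the 78 medullary MD barcodes.

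With at most 4000 counts, Slco3a1 α over β was 2.70 in cortex and 2.81 in medulla and α over γ 1.84; Slco2a1 α over β in cortex was 5.03 and its α ratio of medulla to cortex 0.490; Slco4a1 in β between libraries turned to 0.998. Proximal over TAL was 263 for medullary Slco4c1 and 58.8 and 128 for Slco1a1 in cortex and medulla. With claudin classes, Slco3a1 α over β was 1.68 and 1.43, α over γ 1.57 and γ over β 0.912. Slco2a1 α over β was 1.42 in cortex and 0.744 in medulla, α over γ 4.68 and medulla over cortex 0.457. Slco4a1 in α between libraries was 3.49, Slco4c1 proximal over TAL 44.7 and Slco1a1 proximal over TAL in medulla 15.5. With γ by Tmem207 alone, Slco3a1 α over γ was 2.59 and γ over β 0.919, and Slco2a1 α over γ 5.19 and medulla over cortex 0.439. Without Lrp2, Cubn, Emcn, Flt1, Slc12a3 or Aqp2 counts, Slco3a1 α over β was 2.57 and 2.86, Slco2a1 α over β in cortex 4.11 and medulla over cortex 0.475, Slco4c1 proximal over TAL 259.8 and Slco1a1 proximal over TAL 95.1 and 186. Thinned to 1000 counts, the values in the same order were 2.24 (Slco3a1, cortex), 4.35 and 0.489 (Slco2a1), 465 (Slco4c1), and 12.4 and 36.2 (Slco1a1). As means over nuclei they were 2.21, 4.31 and 0.497, 130.1, and 13.9 and 53.9. With α free of any other class count, α over β in cortex was 1.95 for Slco3a1 and 4.16 for Slco2a1; after Scrublet these were 1.98 and 4.38, and Slco2a1 α over γ was 7.29. Cuts 1 count higher gave 3.27 for Slco2a1 α over β in cortex, cuts 1 count lower 1.62 for Slco3a1 α over γ, and subtracted free RNA 3.41 for the latter. The same subtraction gave 1575 for Slco2a1 α over β in medulla, where it left almost none of the β level.

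Slco1a1 among TAL classes reversed most often. Its α over β ratio in cortex turned to 1.80 with at most 4000 counts and 16.6 with claudin classes. It was 1.36 without Lrp2, Cubn, Emcn, Flt1, Slc12a3 or Aqp2 counts and 1.10 thinned. In medulla it turned to 2.06, 5.36, 1.56 and 1.06 in the same order. Its γ over β ratio in medulla turned to 1.90, 12.4 and 1.27 under the first 3 of these.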
